A study of Mus musculus with 20 samples.

Results

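The mitochondrial carrier family Slc25 was followed through a fast muscle of the hindlimb, the EDL (extensor digitorum longus), of mice given dominant-negative histone deacetylases, a histone deacetylase inhibitor, or both. Members were taken as all genes whose symbol on the array is Slc25a followed by a number. Of 27376 gene names on the arrays, 44 met this rule. A probe away from the outer rows and columns of the array was present for 39 of them, and 31 passed the filter on signal over background and were tested, among 14655 tested genes in all. Slc25a11, Slc25a18, Slc25a22, Slc25a35 and Slc25a44 had probes only in the outer rows or columns. Slc25a12, Slc25a21, Slc25a31, Slc25a34, Slc25a41, Slc25a42, Slc25a43 and Slc25a48 did not pass the filter, and 7 of these 8 were well above background on 0 to 2 arrays.

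Each of 10 male C57Bl6 mice carried an empty adeno-associated vector in the left EDL and, in the right EDL, vectors for D832N HDAC4 and D861N HDAC5, mutants that act as dominant negatives. The vectors were injected at 8 weeks of age in a volume of 30 µL, with 2.5e+10 genomes of each mutant's vector. After 4 weeks, 5 mice received Scriptaid, a hydroxamate inhibitor of histone deacetylases, and 5 received the vehicle, DMSO in PBS. This gave 4 groups of 5 muscles. In vehicle animals the left, empty-vector legs are EV and the right legs with the mutants (dnHDAC4/5) are HV. In Scriptaid animals the left legs are ES and the right legs HS, and EV3 stands for replicate 3 of EV. All muscles, the controls included, had received the virus. The promoter of the vectors, the dose of Scriptaid and the time from its injection to collection are not stated in the labels. Titles of the ES samples name the vehicle, but their treatment and animal entries name Scriptaid, which was followed. The comparisons ask which carriers differ with the mutant deacetylases, with the drug, and with both.

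Slc25 proteins sit mostly in the inner mitochondrial membrane and exchange a metabolite on one side for another on the other side. They let ADP and phosphate in and ATP out, and they pass citrate, acylcarnitines, amino acids, cofactors and iron between the cytosol and the matrix. In muscle the ADP/ATP and phosphate carriers, which serve oxidative phosphorylation, are abundant, and the acylcarnitine carrier feeds fatty acids to oxidation. Class IIa deacetylases such as HDAC4 and HDAC5 restrain muscle genes, in part by binding MEF2 transcription factors.

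The sequences shown describe 2 points: how alike the probes of the ADP/ATP carriers are, and what lies before the start of Slc25a25, the member of smallest p. Whether either bears on the differences below was not tested. The probes of Slc25a4 and Slc25a5, as the scanner files give them, share 54 positions when shifted by 6 bases, and 45 of these positions (83.3%) are the same. Capitals mark the 9 positions that differ. Of the 2 Slc25a4 probes the one shown is not the one read for the gene. The Slc25a25 probe shown is the only one of its 3 that had a value on all 20 arrays.
Slc25a4 probe A_51_P108334: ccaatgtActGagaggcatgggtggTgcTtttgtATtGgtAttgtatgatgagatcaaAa
Slc25a5 probe A_51_P475446: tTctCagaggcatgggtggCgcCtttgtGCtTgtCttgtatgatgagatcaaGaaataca
Slc25a25 probe A_52_P359088: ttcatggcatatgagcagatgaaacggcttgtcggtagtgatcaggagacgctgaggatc

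RefSeq promoter windows on GRCm38.p6, from 250 bases before to 50 after a transcript start, were at hand for 34 of the 44 members (43 windows) and for 24 of the 31 tested ones. The cyclic AMP response element TGACGTCA was found in the windows of 2 members, Slc25a25 and Slc25a36, on a background of 1.79% of all 32851 windows. Slc25a25 has 3 windows, for 3 starts, and the element lies in 1 of them. Capitals mark it in the stretches of 80 bases printed here, both read 5′ to 3′ along the minus strand, with the element 150 to 143 bases before the start in Slc25a25 and 161 to 154 before it in Slc25a36.
Slc25a25, chr2:32424173-32424252: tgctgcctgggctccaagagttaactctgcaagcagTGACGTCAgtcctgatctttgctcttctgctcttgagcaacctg
Slc25a36, chr9:97111159-97111238: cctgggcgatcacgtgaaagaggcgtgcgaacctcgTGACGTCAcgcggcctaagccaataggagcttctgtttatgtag
The estrogen-related receptor element AAGGTCA was found in 1 member window, that of Slc25a34 (4.72% of all windows). The nuclear respiratory factor 1 element GCGCATGCG (1.75% of all windows) and the MEF2 element (1.86%) were in 0 of the 43 member windows. Both strands were searched, and neither printed stretch holds any of these other elements.

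Of 11 fast-fibre markers 9 were measured, and of 8 slow-fibre markers 6. The fast myosin gene Myh4 averaged 6.99 in EV, 7.13 in HV, 6.99 in ES and 7.04 in HS on the log2 scale. All log2 values are the processed signal relative to the 75th percentile of the same array, and levels of different probes are not compared, so these values do not test the fibre type against the label. Summed slow-fibre markers (5 of 8 genes) were 106 in EV1, 89.0 in EV2 and 53.3 in HS2, in multiples of that percentile, against 2.65 to 21.2 on the other arrays. Summed red-cell markers (3 of 8) were 11.4 in EV1 and 17.2 in HS2 against 0.504 to 2.42 elsewhere, and adipocyte markers (10 of 12) reached 283 in HS2, 273 in HS5, 213 in ES2 and 187 in EV1 against 99.7 to 162. Schwann-cell markers (6 of 8) ran from 2.64 to 16.0, macrophage markers (5 of 11) from 3.18 to 10.6, endothelial markers (5 of 7) from 14.6 to 30.9, and brown-adipocyte markers (2 of 6, with no passing probe for Ucp1) from 1.07 to 4.88. In whole muscle, fewer cells of a type and less RNA per cell cannot be told apart. Each slide held 1 array of every group at a fixed place, so the group and its place cannot be told apart. The mutants were always in the right leg, so vector and side of the body cannot be told apart either. The interior probes of Hdac4 and Hdac5 may not match the vectors, and their values overlapped between the legs.

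None of the 31 tested members passed an adjusted p of 0.05 in any of the 7 comparisons by limma, where few genes of any kind did. Across all genes the calls were 0 (0%) for HV against EV, 3 (0.0205%) for HS against ES, 0 (0%) for ES against EV and 1 (0.00682%) for HS against HV. The vector averaged over both injections gave 34 (0.232%), the interaction of vector and drug 0 (0%), and Scriptaid on the mean of both legs of an animal 0 (0%). At an unadjusted p under 0.05 the members numbered 0 for HV against EV (4.85% of all genes), 5 for HS against ES (8.92%), 1 for ES against EV (4.07%) and 4 for HS against HV (7.67%). For the averaged vector there were 3 (10.6%), for the interaction 1 (2.16%) and for Scriptaid on the animal means 3 (5.45%). Of 31 members, the share was above that of all genes in 4 of these 7 comparisons (HS against ES, HS against HV, the interaction and the animal means), by fewer than 3 members in each.

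The median differences of the family were small, and they were not tested. The median log2 difference of the 31 members was 0.02 for HV against EV, 0.09 for HS against ES, 0.10 for ES against EV and 0.10 for HS against HV. The same medians over all 14655 genes were 0.00, 0.03, 0.02 and 0.05, each below that of the members. Between slides the members' median had an SD of 0.14, 0.09, 0.11 and 0.05 in the same order. On the animal means the members' median was 0.07 (all genes 0.03), with 22 of the 31 members above 0 against 57.3% of all genes, and 17 of the 31 when the percentile was taken over interior spots. With normexp, another background correction, the members' medians in the 4 pairs were 0.10, 0.16, 0.06 and 0.17, and those of all genes -0.07, 0.10, -0.07 and 0.07. With quantile normalization the median for HV against EV was -0.03. One member, Slc25a25, had groups that did not overlap, and only for HS against HV, where 1.15% of all genes did so. This was on its brightest probe with HS4 left out, and the groups overlapped on the probe that had every array. In the other pairs 0 members did, and the shares of all genes were 0.648% for HV against EV, 2.4% for HS against ES and 1.11% for ES against EV.

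**Figure D1:**
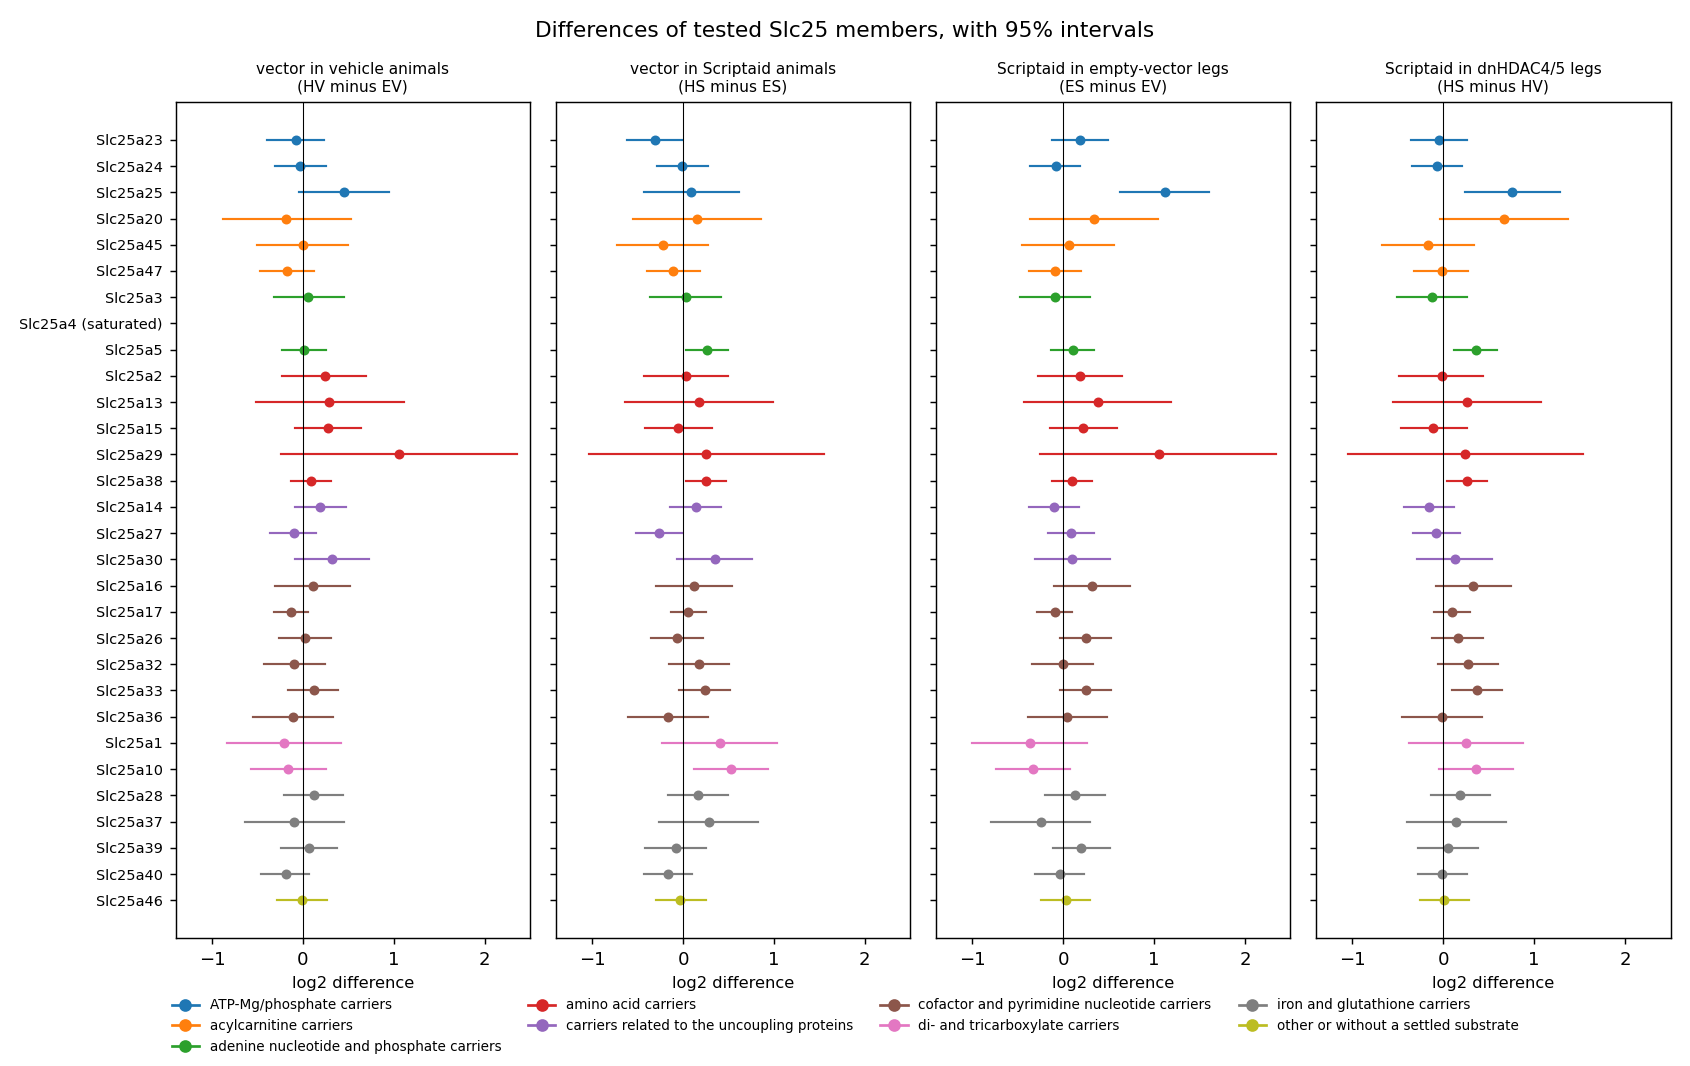
Log2 difference (horizontal axis) of 30 tested members in the 4 comparisons between groups, with limma's 95% intervals as lines, coloured by transport role; Slc25a4 is listed without values because its probes were saturated. Slc25a25 has the interval farthest above 0, for ES minus EV (1.12, from 0.62 to 1.61), and Slc25a29 has the widest.

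The ADP/ATP carriers Slc25a4 and Slc25a5 exchange matrix ATP for cytosolic ADP, and Slc25a3 brings in phosphate. Both probes of Slc25a4, the isoform of heart and skeletal muscle, were saturated on 20 of 20 arrays, so no difference can be read for it, and its values ran from 6.61 to 7.84. Slc25a3 was saturated on 14 arrays (4 EV, 3 HV, 4 ES, 3 HS), which can damp a difference. Slc25a3 was 6.86, 6.73, 7.12, 7.07 and 7.18 in EV1 to EV5 and 7.35, 6.99, 6.73, 6.99 and 7.20 in HV1 to HV5. Under Scriptaid, Slc25a3 was 7.26, 6.84, 6.56, 6.88 and 6.95 in ES1 to ES5 and 7.60, 6.76, 6.62, 6.54 and 7.12 in HS1 to HS5. The 4 groups overlapped, and the differences were -0.12 to 0.06 with an SE of 0.18 each. Slc25a31, the germ-cell isoform, was well above background on 1 array and was not tested.

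Slc25a5, the more widely expressed isoform, was not saturated. Its log2 values were 4.25, 4.28, 4.70, 4.31 and 4.42 in EV1 to EV5 and 4.43, 4.46, 4.53, 4.37 and 4.22 in HV1 to HV5. With Scriptaid they were 4.51, 4.43, 4.57, 4.62 and 4.36 in ES1 to ES5 and 4.83, 4.52, 4.70, 5.05 and 4.70 in HS1 to HS5. HS lay highest, with HS2 inside the range of ES and of HV, and the right leg was above the left in all 5 Scriptaid animals. HS exceeded HV by 0.36 ± 0.11 (SE; n = 5 per group; limma adjusted p = 0.378) and ES by 0.26 ± 0.11 (adjusted p = 0.487). HV minus EV was 0.01 ± 0.11, and the interaction of 0.25 ± 0.16 (adjusted p = 1) turned to -0.09 with another background correction. Whether signal from Slc25a4 RNA reaches this probe, which shares the stretch shown above, was not tested.

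Slc25a23, Slc25a24 and Slc25a25 exchange ATP-Mg for phosphate and are opened by calcium, and so set the pool of adenine nucleotides in the matrix. Slc25a25 had the smallest p of the family in the comparison of ES with EV, where it ranked 7 of 14655 genes by p. Its log2 values in EV1 to EV5 were 2.62, 2.55, 3.79, 2.38 and 2.44, and in HV1 to HV5 2.98, 3.23, 3.56, 3.22 and 3.06. In ES1 to ES5 they were 3.43, 3.82, 3.86, 4.5 and 3.77, and in HS1, HS2, HS3 and HS5 3.99, 3.85, 4.11 and 3.93. The spot of HS4 was left out because the scanner software marked it as non-uniform. These values are of probe A_51_P193173, the brightest of the 3.

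Among the empty-vector legs EV3 alone reached into the range of the Scriptaid muscles, and its other leg, HV3, was the highest of HV. Each of the 4 HS values lay above all 5 HV values. ES exceeded EV by 1.12 ± 0.23, a 2.17-fold difference (95% interval 0.62 to 1.61; limma adjusted p = 0.342), with ES higher on all 5 slides. Without EV3 the difference was 1.37 ± 0.17 and the adjusted p 0.00611. HS exceeded HV by 0.76 ± 0.25 (adjusted p = 0.427). On the means of both legs the Scriptaid animals were higher by 0.99 ± 0.21 (adjusted p = 0.685), animal 4 entering by its left leg alone. Thus no comparison over all arrays passed the threshold for Slc25a25, and the one that did left out a control muscle.

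Between the legs, HV minus EV was 0.45 ± 0.23 (adjusted p = 1), with the right leg higher by 0.35, 0.67, 0.84 and 0.62 in vehicle animals 1, 2, 4 and 5 and lower by 0.22 in animal 3. Without EV3, HV minus EV for Slc25a25 was 0.71 ± 0.17 (adjusted p = 0.494). HS minus ES was 0.09 ± 0.25, and the interaction was -0.36 ± 0.34 (adjusted p = 1). The effect of Scriptaid was thus not shown to differ between the legs.

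The other probes of Slc25a25 gave the same direction. Probe A_51_P193176 differed by 1.26 for ES minus EV and 0.86 for HS minus HV, and probe A_52_P359088 by 0.80 and 0.53. The last had a value for HS4, -0.39, which was the highest of HS, and ES4 (-0.40) was the highest of ES: both are legs of 1 animal. On it EV3 (-0.70) and HV3 (-0.57) again stood above the other vehicle muscles, which ran from -2.32 to -1.46. HV3 lay inside the range of HS on this probe (-1.35 to -0.39), so HS and HV overlapped there. Taking the mean of the probes in place of the brightest lowered HS minus HV to 0.22, with HS4 then measured by the dimmest probe alone.

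**Figure D2:**
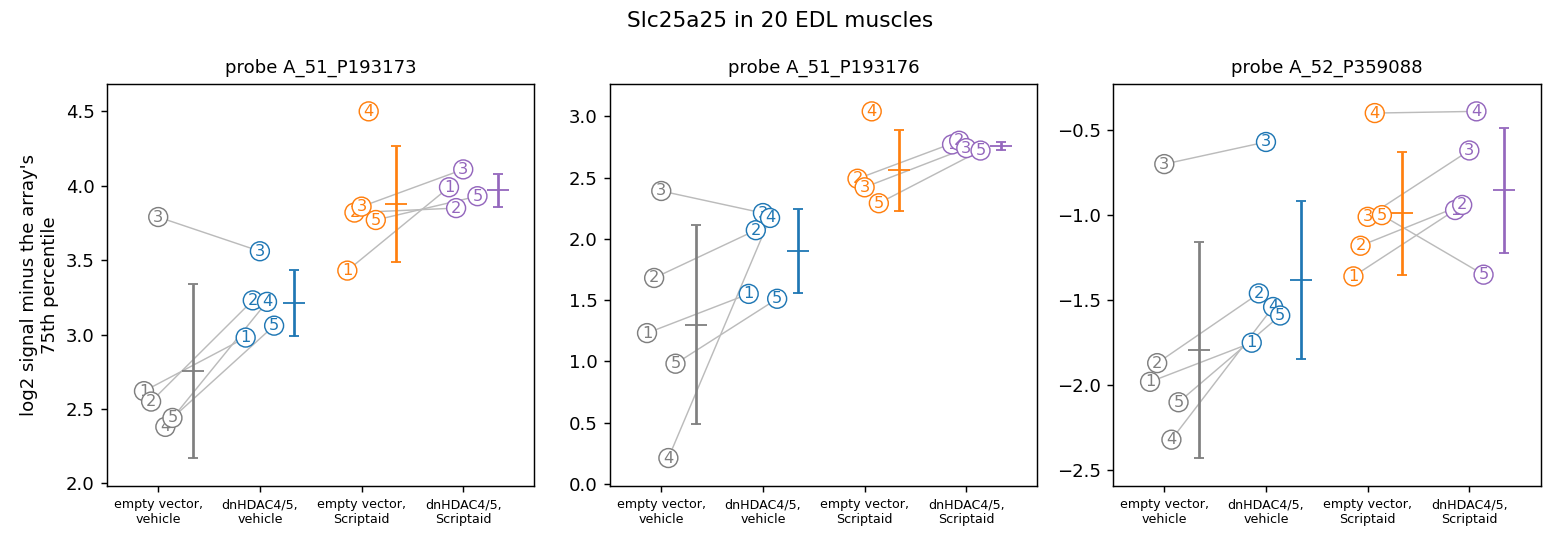
Slc25a25 by its 3 probes in every muscle: log2 signal minus the array's 75th percentile (vertical axis) by group, with replicate numbers in the circles, lines joining the legs of 1 animal, and bars for mean ± SD (n = 4 or 5). Vehicle animal 3 is high on every probe, and the Scriptaid muscles lie above the remaining empty-vector controls.

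The other ATP-Mg carriers did not pass the threshold either. Slc25a24 was -0.18, -0.23, -0.31, -0.48 and -0.54 in EV1 to EV5 and -0.45, -0.23, -0.13, -0.68 and -0.38 in HV1 to HV5. Under Scriptaid, Slc25a24 was -0.31, -0.61, -0.41, -0.25 and -0.58 in ES1 to ES5 and -0.55, -0.02, -0.57, -0.61 and -0.45 in HS1 to HS5. All 4 groups overlapped, and ES minus EV was -0.08 ± 0.13 (95% interval -0.36 to 0.19). Slc25a23 was -3.65, -3.69, -4.0, -3.66 and -3.60 in EV1 to EV5 and -3.58, -3.46, -3.77, -4.06 and -4.12 in HV1 to HV5. Under Scriptaid, Slc25a23 was -3.55, -3.58, -3.71, -3.36 and -3.46 in ES1 to ES5 and -3.64, -4.23, -3.66, -4.05 and -3.66 in HS1 to HS5. The probe is dim and was not well above background in EV3 and HV5. Slc25a23 differed by -0.31 ± 0.15 for HS minus ES (adjusted p = 0.545). Its direction turned with another background correction (0.01). Slc25a41 was well above background on 1 array and was not tested. Slc25a36, the other member with the cyclic AMP response element, a pyrimidine nucleotide carrier, differed by 0.04 ± 0.21 for ES minus EV and -0.02 ± 0.21 for HS minus HV.

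Of 10 carriers of cofactors and pyrimidine nucleotides 7 were tested, and on the animal means 7 of 7 lay at or above 0, with a median of 0.13, but 5 of 7 did with the percentile over interior spots or the series matrix and 6 of 7 with normexp. Slc25a33, a pyrimidine nucleotide carrier tied to growth signals and mitochondrial DNA upkeep, was 3.25, 3.15, 3.48, 3.45 and 3.52 in EV1 to EV5 and 3.88, 3.60, 3.23, 3.55 and 3.17 in HV1 to HV5. It was 3.45, 3.65, 3.77, 3.49 and 3.73 in ES1 to ES5 and 3.98, 3.71, 3.81, 3.74 and 4.07 in HS1 to HS5. The HS values lay above every other muscle except HV1, ES3 and ES5. HS minus HV was 0.37 ± 0.13 (limma adjusted p = 0.453), ES minus EV 0.25 ± 0.13 (adjusted p = 1) and the difference of animal means 0.31 ± 0.09 (adjusted p = 0.847). Its second probe gave 0.59 for HS minus HV and 0.35 for ES minus EV.

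The cofactor carriers described next did not pass the threshold. Slc25a16 differed by 0.32 ± 0.20 for ES minus EV and 0.33 ± 0.20 for HS minus HV (adjusted p = 1 and 0.733), the former being 0.15 without EV1. Slc25a26 was 2.44, 2.58, 2.83, 2.95 and 2.44 in EV1 to EV5 and 2.65, 2.48, 2.49, 2.99 and 2.74 in HV1 to HV5. Under Scriptaid, Slc25a26 was 2.61, 2.92, 2.97, 2.99 and 2.97 in ES1 to ES5 and 2.94, 2.52, 2.99, 2.98 and 2.71 in HS1 to HS5. This carrier of S-adenosylmethionine was higher in ES than in EV on all 5 slides, with overlapping groups, by 0.25 ± 0.14 (adjusted p = 1). Slc25a17 was 1.75, 1.55, 1.69, 1.49 and 1.61 in EV1 to EV5 and 1.38, 1.34, 1.69, 1.60 and 1.44 in HV1 to HV5. Under Scriptaid, Slc25a17 was 1.56, 1.56, 1.58, 1.55 and 1.37 in ES1 to ES5 and 1.67, 1.56, 1.52, 1.5 and 1.68 in HS1 to HS5. This peroxisomal carrier had the tightest replicates of the tested members, with a within-group SD of 0.11, and its largest difference among the 4 pairs was -0.13 ± 0.09 for HV minus EV. Its other probes gave -0.26 and -0.06 for HV minus EV, and -0.06 and 0.10 for ES minus EV. Slc25a32, the folate and FAD carrier, differed by 0.27 ± 0.16 for HS minus HV (adjusted p = 0.724), and by 0.13 without HV5.

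Among 10 amino acid carriers 5 were tested. Slc25a38, which brings glycine into the matrix for the first step of heme synthesis, was 0.94, 0.66, 0.86, 0.75 and 1.09 in EV1 to EV5 and 1.1, 0.91, 0.72, 1.06 and 0.94 in HV1 to HV5. It was 1.00, 0.76, 0.98, 0.93 and 1.1 in ES1 to ES5 and 1.25, 1.06, 1.15, 1.21 and 1.35 in HS1 to HS5. In all 5 Scriptaid animals the right leg was above the left, while vehicle animals went both ways. HS minus ES was 0.25 ± 0.10 (adjusted p = 0.469) and HS minus HV 0.26 ± 0.10 (adjusted p = 0.556). The vector averaged over both injections gave 0.17 ± 0.07 (adjusted p = 0.405), and the interaction 0.16 ± 0.15 (adjusted p = 1).

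Slc25a29 was 0.38, -0.06, 1.36, -0.27 and -3.89 in EV1 to EV5 and 0.77, 0.49, 0.91, 0.38 and 0.27 in HV1 to HV5. Under Scriptaid, Slc25a29 was 0.81, 0.00, 0.80, 0.47 and 0.69 in ES1 to ES5 and 1.36, 0.15, 0.76, 0.73 and 1.03 in HS1 to HS5. This carrier of basic amino acids was far lowest in EV5, on a spot not well above background, and the other 3 groups lay between 0.00 and 1.36. HV minus EV was 1.06 ± 0.62 and ES minus EV 1.05 ± 0.62 (adjusted p = 1 for both), while without EV5 they were 0.21 ± 0.29 and 0.20 ± 0.29, and the other probe of Slc25a29 gave 0.14 and 0.19. Slc25a13, an aspartate/glutamate carrier of the malate-aspartate shuttle, varied widely within groups (SD 0.65) and differed by 0.18 to 0.38, with an SE of 0.39 each. With single arrays left out, ES minus EV for Slc25a13 ran from 0.17 to 0.62. The ornithine carriers Slc25a15 and Slc25a2 were dim, and Slc25a2 differed by -0.02 to 0.24 with an SE of 0.22 each. Slc25a15 was -3.70, -4.28, -3.31, -3.80 and -4.24 in EV1 to EV5 and -3.50, -3.97, -3.60, -3.52 and -3.35 in HV1 to HV5. Under Scriptaid, Slc25a15 was -3.83, -3.79, -3.75, -3.41 and -3.46 in ES1 to ES5 and -3.69, -4.05, -3.69, -3.61 and -3.45 in HS1 to HS5. EV2 and EV5 were the lowest, EV5 being not well above background. Slc25a15 differed by 0.28 ± 0.17 for HV minus EV (adjusted p = 1), and by 0.17 without EV2 and 0.18 without EV5. Its interaction of -0.33 ± 0.25 turned to 0.70 with another background correction. Slc25a12, the muscle form of the aspartate/glutamate carrier, had its interior probe measured on 7 arrays, being marked as non-uniform on the rest, and was not tested.

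Slc25a10 passes malate and succinate against phosphate, and Slc25a1 exports citrate. They were the 2 of 6 di- and tricarboxylate carriers that could be tested. Slc25a10 was 0.21, -0.15, 0.13, -0.12 and -0.01 in EV1 to EV5 and -0.06, -0.26, 0.17, -0.38 and -0.23 in HV1 to HV5. It was -0.94, 0.10, -0.38, -0.18 and -0.21 in ES1 to ES5 and -0.04, 0.37, 0.32, -0.34 and 0.75 in HS1 to HS5. HS5 and HS2 were high and ES1 was low, and the groups overlapped. HS minus ES was 0.53 ± 0.20 (adjusted p = 0.374), HV minus EV -0.16 ± 0.20, and the interaction 0.69 ± 0.28 (adjusted p = 1).

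Slc25a1 was -0.17, -0.46, -1.01, -1.33 and -0.90 in EV1 to EV5 and -1.08, -0.96, -0.56, -1.14 and -1.21 in HV1 to HV5. Under Scriptaid, Slc25a1 was -1.38, -0.82, -1.29, -1.05 and -1.19 in ES1 to ES5 and -1.46, 0.23, -0.89, -1.57 and -0.02 in HS1 to HS5. HS2 (0.23) and HS5 (-0.02) were the highest muscles of all, followed by EV1 (-0.17). HS minus ES was 0.41 ± 0.30 (adjusted p = 0.766), and 0.16 without HS2 and 0.22 without HS5. These muscles also held 3 of the 4 largest adipocyte marker sums, 283 in HS2, 273 in HS5 and 187 in EV1. The other was 213 in ES2, where Slc25a1 was -0.82. HS2 and EV1 also had the largest red-cell (17.2 and 11.4) and Schwann-cell marker sums (10.2 and 16), while HS5 had 1.22 and 3.25. The 10 adipocyte markers had a median difference of 1.36 for HS minus ES, with 8 of 10 higher and none passing an adjusted p of 0.05. The part of RNA from adipocytes or other cell types in the values of Slc25a1 and Slc25a10 was not tested.

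Slc25a20, the carnitine-acylcarnitine carrier, was 2.21, 1.80, 1.41, 2.12 and 2.48 in EV1 to EV5 and 2.49, 2.00, 0.17, 2.08 and 2.41 in HV1 to HV5. It was 2.27, 1.91, 2.59, 2.52 and 2.44 in ES1 to ES5 and 2.79, 1.93, 2.67, 2.58 and 2.52 in HS1 to HS5. Both legs of vehicle animal 3, the animal with high Slc25a25, were the lowest of their groups. HS minus HV was 0.67 ± 0.34 (adjusted p = 0.663) and ES minus EV 0.34 ± 0.34. Without HV3, HS minus HV was 0.25 ± 0.21 (adjusted p = 0.845), and HV minus EV went from -0.18 to 0.24. Without EV3, ES minus EV for Slc25a20 was 0.19. Slc25a45 was -1.72, -2.36, -2.10, -2.62 and -2.0 in EV1 to EV5 and -2.36, -2.25, -2.05, -2.54 and -1.61 in HV1 to HV5. Under Scriptaid, Slc25a45 was -2.18, -1.99, -1.84, -2.46 and -2.05 in ES1 to ES5 and -3.13, -1.94, -1.68, -2.46 and -2.43 in HS1 to HS5. HS1 was the lowest muscle, and HS minus HV, -0.17 ± 0.24, turned to 0.04 without it. Slc25a47 was -0.02, 0.20, 0.70, 0.38 and 0.39 in EV1 to EV5 and 0.19, 0.02, 0.26, -0.01 and 0.32 in HV1 to HV5. Under Scriptaid, Slc25a47 was 0.35, 0.17, 0.37, -0.09 and 0.40 in ES1 to ES5 and -0.11, 0.05, 0.11, 0.44 and 0.18 in HS1 to HS5. EV3 was the highest, and HV minus EV was -0.17 ± 0.14 (adjusted p = 1).

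The carriers related to the uncoupling proteins are known mainly from brain and kidney. Slc25a30 was -1.34, -1.45, -1.24, -1.43 and -1.46 in EV1 to EV5 and -1.29, -0.39, -1.30, -0.96 and -1.38 in HV1 to HV5. Under Scriptaid, Slc25a30 was -0.71, -1.37, -1.60, -1.52 and -1.21 in ES1 to ES5 and -0.67, -1.33, -1.21, -0.86 and -0.62 in HS1 to HS5. HV2 was the highest muscle, without which HV minus EV was 0.15, and the groups overlapped. Slc25a30 differed by 0.32 ± 0.20 for HV minus EV and 0.35 ± 0.20 for HS minus ES, and by 0.33 ± 0.14 for the vector averaged over both injections (adjusted p = 0.382). The right leg was higher in 9 of 10 animals, but the other probe of Slc25a30 gave -0.06 for HV minus EV and 0.92 for HS minus ES. That probe also gave -0.67 for ES minus EV, against 0.10 on the probe read for the gene. With another background correction HV minus EV for Slc25a30 turned to -0.06. Slc25a27 was -0.13, -0.23, 0.00, 0.00 and -0.05 in EV1 to EV5 and -0.39, -0.50, 0.05, 0.01 and -0.08 in HV1 to HV5. Under Scriptaid, Slc25a27 was 0.08, 0.11, 0.02, -0.19 and 0.01 in ES1 to ES5 and -0.17, -0.53, 0.01, -0.30 and -0.29 in HS1 to HS5. HS2 and HV2 were the lowest. Slc25a27 differed by -0.26 ± 0.12 for HS minus ES (adjusted p = 0.537) and was lower in the right leg of all 5 Scriptaid animals. Slc25a14 was 0.15, -0.38, 0.04, 0.32 and 0.27 in EV1 to EV5 and 0.37, 0.24, 0.20, 0.33 and 0.22 in HV1 to HV5. Under Scriptaid, Slc25a14 was -0.12, 0.03, 0.05, -0.17 and 0.12 in ES1 to ES5 and -0.15, -0.13, 0.27, 0.32 and 0.27 in HS1 to HS5. EV2 was the lowest. Slc25a14 differed by 0.19 ± 0.13 for HV minus EV and -0.16 ± 0.13 for HS minus HV.

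Mitoferrins Slc25a37 and Slc25a28 import iron, and Slc25a39 and Slc25a40 are known as glutathione carriers. Slc25a37 lay between 1.60 and 2.38 on 18 arrays and stood at 2.81 in EV1 and 3.25 in HS2, the arrays with the largest red-cell marker sums (11.4 and 17.2). The same arrays had the largest Schwann-cell marker sums (16 and 10.2). Their slow-fibre (106 and 53.3) and adipocyte sums (187 and 283) were high too. Its differences were -0.10 ± 0.26 for HV minus EV and 0.29 ± 0.26 for HS minus ES. Without HS2 the latter was 0.01 ± 0.20, and without EV1 the former was 0.08 ± 0.25. Other, dimmer probes of Slc25a37 gave 0.62 and 0.34 for HS minus ES, and 0.13 and 0.01 for HV minus EV. For Slc25a37 the part of RNA from red cells or any of these other cell types was not tested. Slc25a28 differed by 0.12 to 0.18, with an SE of 0.16 each. Slc25a40 was -1.17, -0.86, -1.04, -0.91 and -0.88 in EV1 to EV5 and -1.29, -1.36, -1.18, -0.77 and -1.22 in HV1 to HV5. Under Scriptaid, Slc25a40 was -1.18, -0.93, -1.09, -0.84 and -1.01 in ES1 to ES5 and -1.46, -1.29, -1.13, -0.85 and -1.13 in HS1 to HS5. The right leg was below the left in 9 of 10 animals. HV minus EV was -0.19 ± 0.13, HS minus ES -0.16 ± 0.13 and their mean -0.18 ± 0.09 (adjusted p = 0.512). Slc25a39 was 3.97, 3.71, 4.47, 3.90 and 4.16 in EV1 to EV5 and 4.23, 3.97, 4.35, 4.01 and 4.01 in HV1 to HV5. Under Scriptaid, Slc25a39 was 4.27, 4.00, 4.40, 4.26 and 4.31 in ES1 to ES5 and 4.42, 3.87, 4.38 and 3.98 in HS1, HS2, HS3 and HS5. The spot of HS4 was left out here too, EV3 was the highest, and ES minus EV was 0.20 ± 0.15. Slc25a46, an outer-membrane protein that acts in mitochondrial dynamics, ran from 3.18 to 3.83, and its differences were -0.03 to 0.03.

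**Figure D3:**
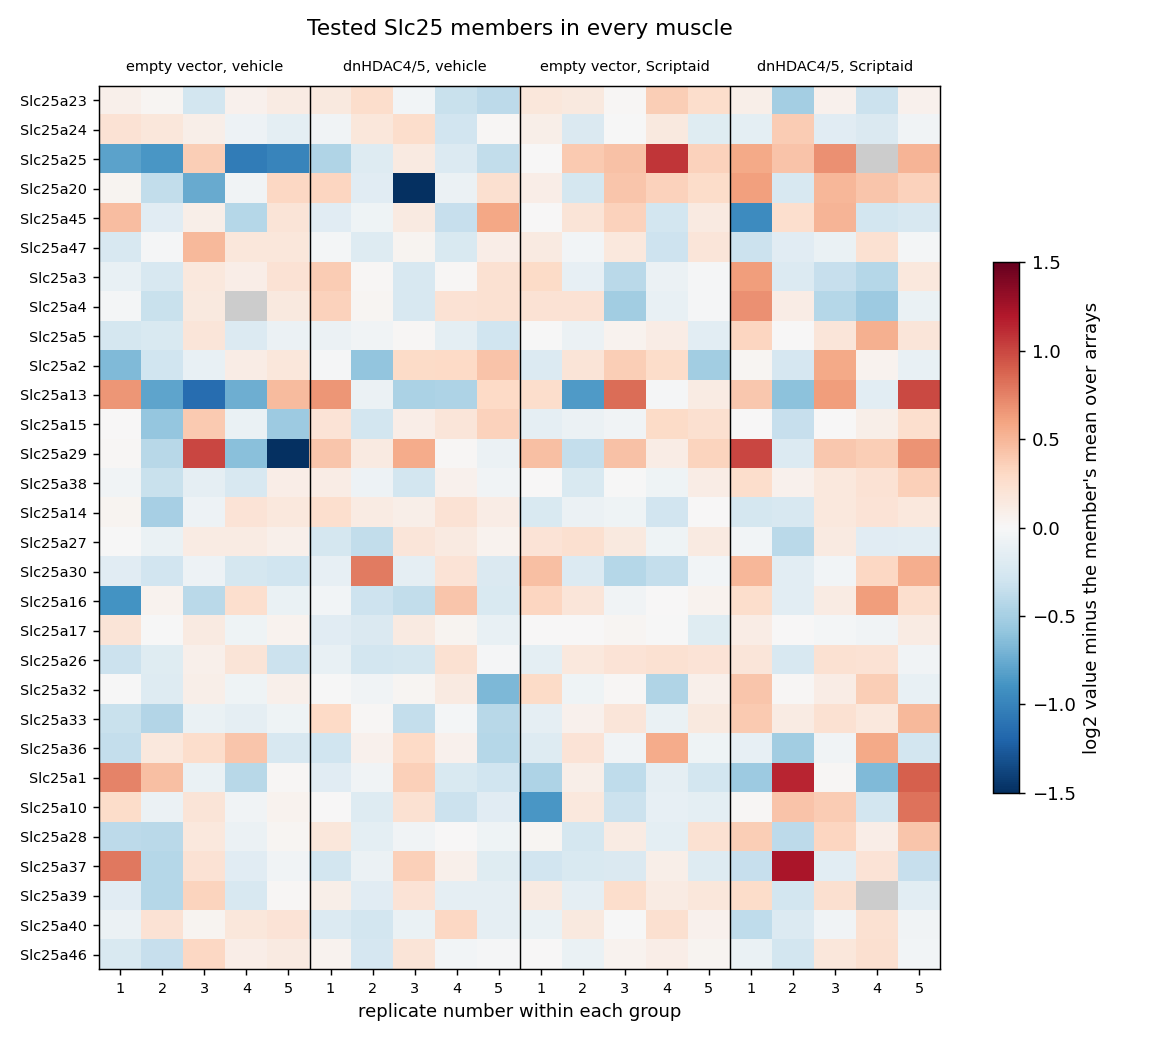
30 tested members (rows) in every muscle (columns, by group and replicate number), as the log2 value minus the member's mean over all arrays. The colours end at 1.5 in either direction (EV5 of Slc25a29 and HV3 of Slc25a20 lie beyond), grey is a spot left out, and the row of Slc25a25 is low in 4 of 5 EV muscles. No difference can be read from the row of Slc25a4, whose probes were saturated on all arrays.

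**Figure D4:**
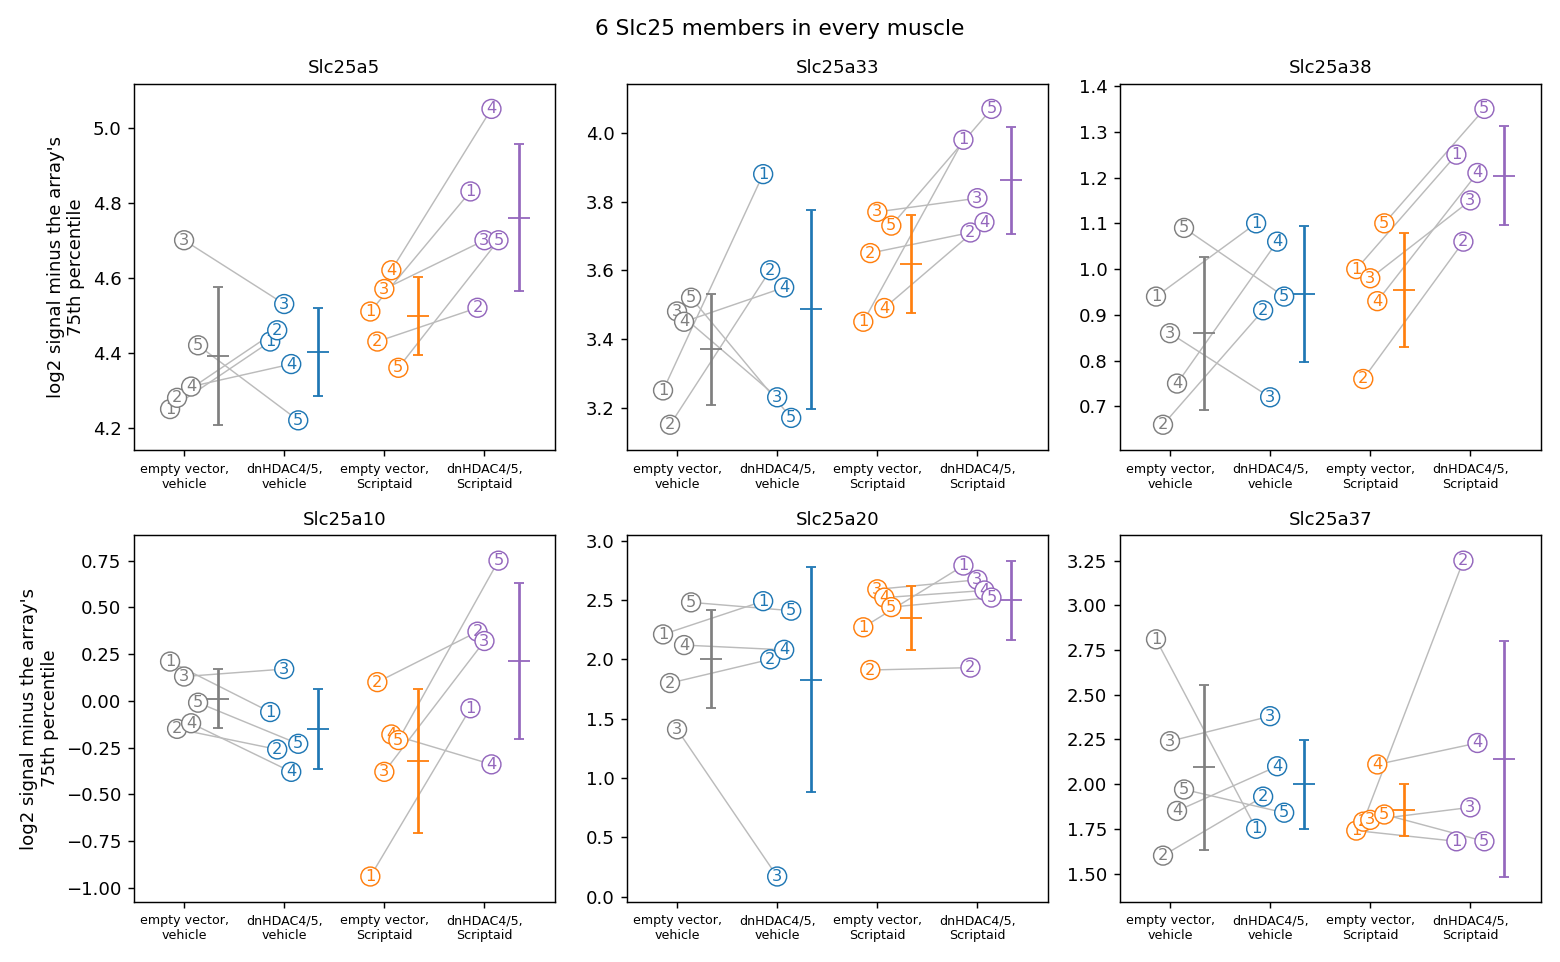
6 members in every muscle: log2 signal minus the array's 75th percentile (vertical axis) by group, drawn as replicate numbers in circles, with lines joining the legs of 1 animal and bars for mean ± SD (n = 5). Slc25a5 and Slc25a38 are higher in the right leg of all 5 Scriptaid animals, HV3 is low for Slc25a20, and EV1 and HS2 are high for Slc25a37. Slc25a5 and Slc25a38 were named for a small p for HS minus ES, so their count of animals is no separate support.

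The partners of the carriers were read from lists. Of 15 regulators of mitochondrial biogenesis 14 were tested, 0 passed the threshold in any comparison, and on the animal means all 14 were above 0 with a median of 0.15, but 12 of 14 with normexp, with the percentile over interior spots and with the series matrix. The coactivator Ppargc1a differed by 0.35 ± 0.16 for ES minus EV and 0.56 ± 0.16 for HS minus HV (adjusted p = 1 and 0.337). The fatty-acid receptor Ppara differed by 0.71 ± 0.23 and 0.83 ± 0.23 (adjusted p = 0.993 and 0.338). Of 14 genes of the carnitine system and redox shuttles 11 were tested and 0 passed, with medians of 0.00 to 0.16. Got2, the mitochondrial transaminase that works with Slc25a13, differed by 0.33 ± 0.21 for ES minus EV, and Gpd2 by -0.28 ± 0.14 for the averaged vector (adjusted p = 0.513). Of 27 other mitochondrial transport genes 21 were tested and 0 passed. For the averaged vector 10 of them were higher and 11 lower. Tspo, an outer-membrane protein, differed by 0.35 ± 0.12 (adjusted p = 0.231) and Sfxn2 by -0.29 ± 0.12 (adjusted p = 0.382) in that comparison.

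Relatives of the family under other names gave 4 tested genes of 7, and 0 passed. Mtch1, an outer-membrane member, differed by 0.54 ± 0.13 for HS minus ES (adjusted p = 0.190) and by 0.36 ± 0.09 for the averaged vector (adjusted p = 0.0871). Ucp3, the uncoupling protein of muscle, differed by 0.41 ± 0.26 for ES minus EV (adjusted p = 1). The genes of these lists were chosen with earlier results of these data known. Those named were picked from the genes of smallest p of a list in a comparison, so they do not stand for the list.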

How the data were processed

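Cy3-labelled RNA (100 ng input per the labels) was hybridised to arrays of design Agilent-014868. Per the file headers, Feature Extraction 9.5.1.1 (protocol GE1-v5_95_Feb07) made the deposited processed intensity per spot, which is background-subtracted and detrended. The deposited series matrix holds a ratio, the processed intensity divided by a constant per array.

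From the log2 of each intensity, that of the array's 75th percentile was subtracted. Spots outside columns 1 to 77 and rows 11 to 522 were left out, because outer spots of HS arrays were often dim (2.12 to 3.52% against 0 to 0.366% in other groups). Dim means more than 3 log2 units below the spot's median over arrays. Of the interior spots, which were kept, 0.917% were dim in EV5 against 0.0105 to 0.254% on the other arrays. Spots marked as outliers were left out too. Probes had to be well above background on at least 5 arrays with 3 values per group, and a gene was read from its probe of highest mean. Groups were compared with limma 3.58.1 (R 4.3.3, two-sided, Benjamini-Hochberg over 14655 genes), and the animal comparison used the means of both legs. The legs of an animal pair by the animal identifiers, and their deviations correlated between 0.02 and 0.43. The main fit treated the arrays as independent. Its SEs and p-values for comparisons between legs therefore do not use this pairing, which entered only as an alternative. The number of arrays limits precision, and p-values measure the spread between these muscles.

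Values of every muscle are given for members called in a comparison, for the 3 of smallest p in each direction per comparison, and for the 5 of highest mean in EV. The saturated Slc25a4 met these rules but is given as a range, and the medians and counts include it. One tested member is not reported here, though the counts include it. Slc25a20 and Slc25a37 were added after their values were seen. Counts of animals or slides in the same direction use the values that gave a member its small p. They are no separate support, and are given without the share over all genes. Members and lists were chosen with earlier results of these data known. The fit was run on simulated data with independent noise on each array, and read for HV minus EV only. That run cannot show how deviations shared by legs or slides affect the fit. Alternatives were another background correction (normexp, offset 50), scaling, filter and probe rule, the deposited ratio, blocks for slide or animal, and leaving out each array.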

Additional observations from a re-analysis of the deposited data

Results flagged for a closer look

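Of the 124 sets of a tested member in 1 group, 8 held a muscle far from the others of its group, and chance flags about 1 in 20. Slc25a25 was highest in EV3 (3.79, next 2.62), and Slc25a20 lowest in HV3 (0.17, next 2.00), both from vehicle animal 3, and Slc25a23 was lowest in EV3 of the same animal (-4.0, next -3.69). Slc25a24 was highest in HS2 (-0.02, next -0.45) and Slc25a37 in ES4 (2.11, next 1.83). Slc25a17 was lowest in ES5 (1.37, next 1.55), Slc25a26 in ES1 (2.61, next 2.92) and Slc25a32 in HV5 (-1.43, next -0.82).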

How the results depend on the processing

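Directions were often not stable: of all 217 differences of tested members (31 members in 7 comparisons), 111 turned under at least 1 alternative, 66 with normexp, 19 with quantile normalization and 76 when an array or animal was left out. Among the 42 named for the smallest p in each direction, 10 turned. With normexp these were HV minus EV for Slc25a17 (0.10) and Slc25a30 (-0.06), HS minus ES for Slc25a23 (0.01), ES minus EV for Slc25a17 (0.15), HS minus HV for Slc25a4 (0.04), the interaction for Slc25a15 (0.70), Slc25a23 (0.69) and Slc25a5 (-0.09), and the animal means for Slc25a4 (0.08). Leaving out each array in turn, HS minus HV for Slc25a45 ran from -0.33 to 0.04, the latter without HS1. The cause was not tested.

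Members called stayed at 0 in every setting but those without EV3, or without both legs of vehicle animal 3 (chosen after seeing the data), where Slc25a25 passed for ES minus EV (1 member; 1.37 ± 0.16 and adjusted p 0.00515 without the animal). Over all its alternatives that difference ran from 0.80 to 1.43 with adjusted p from 0.00515 to 1. With the slide or the animal as replicate block 0 members were called, and the members' median for HS minus ES was 0.12. With normexp the members' medians in the 4 pairs were 0.10, 0.16, 0.06 and 0.17, and 0.19 for the averaged vector, 0.04 for the interaction and 0.08 for the animal means. Members at an unadjusted p under 0.05 then numbered 5 for HV minus EV and 10 for ES minus EV, where 3387 and 5482 of all genes did. With quantile normalization the medians were -0.03, 0.15, 0.07 and 0.16, and 0.06 for the interaction.

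The counts over all genes moved more. For HS minus ES (3 genes) they were 0 with normexp, with the percentile over interior spots, with no filter, with probes well above background on all 20 arrays, with the mean of probes and without vehicle animal 3, and 7 with quantile normalization, 195 with edge spots kept, 5 with the series matrix and 1 with the animal as replicate block. For HS minus HV (1 gene) they were 0 with normexp, with no filter and with the series matrix, 5 with quantile normalization and with probes well above background on all arrays, 202 with edge spots kept, 3 with the mean of probes and 18 with the slide as replicate block. For the averaged vector (34 genes) they were 5 with normexp, 61 with quantile normalization, 172 with edge spots kept, 11 with no filter, 72 with probes well above background on all arrays, 102 with the series matrix, 59 with the animal and 133 with the slide as replicate block. HV minus EV gave 1 with no filter. ES minus EV gave 1 with normexp, with no filter and without vehicle animal 3. The interaction gave 28 with edge spots kept, and the animal means 1 with normexp and 29 with edge spots kept.

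Leaving out each array in turn gave 0 to 3 genes for HV minus EV (3 without HV5), 0 to 6 for HS minus ES, 0 to 1 for ES minus EV, 0 to 31 for HS minus HV (31 without HS2), 11 to 215 for the averaged vector (215 without HV5), 0 to 1 for the interaction and 0 for the animal means. Members called ran from 0 to 1 for ES minus EV and were 0 elsewhere. The members' medians ran from 0.00 to 0.07, 0.06 to 0.11, 0.05 to 0.12 and 0.06 to 0.12 in the 4 pairs, 0.03 to 0.11 for the averaged vector, -0.05 to 0.06 for the interaction and 0.01 to 0.12 for the animal means. Saturation bars any reading of Slc25a4 and limits Slc25a3, and dim probes limit Slc25a15 and Slc25a23.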
